A study of Mus musculus with 11 samples.

Results

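Injury-profile nuclei after scratch lesions are neuronal nuclei of the mouse trigeminal ganglion that carried transcripts of several injury-response genes in animals whose scratching had opened the skin of the head and neck. They were chosen on 6 gate genes, Atf3, Sema6a, Sprr1a, Itgb6, Flrt3 and Gadd45a. A nucleus was taken when its unique molecular identifiers (UMIs, counts of captured RNA molecules) for the 6 genes summed to at least 4 and at least 2 of the genes were detected. The rule took 277 of 7829 nuclei of the scratch lesion library (3.54%, exact 95% interval 3.14 to 3.97), out of 40359 nuclei in the whole series. They were set against nuclei of the same library with 0 UMIs of all 6 genes, of which there were 5527. Because the gated nuclei were deeper, 1385 of these 0-UMI nuclei were matched to them on UMIs outside the gate genes, 5 for each, and the medians were 3719 UMIs in gated nuclei, 3714 in matched 0-UMI nuclei and 2142 in all 0-UMI nuclei. The 6 gate genes were left out of every comparison of genes below.

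The scratch lesion mice were older than 6 weeks, of a mixed FVBN/C57BL/129 background, and carried Fos-tTA together with a tetO-mCherry-2A-Gnaq transgene, a random insertion encoding a constitutively active G protein subunit. They developed chronic scratching, and animals with visible lesions were picked. The other injury libraries came from C57BL mice with partial infraorbital nerve transection (IOT), which cuts superficial branches of a trigeminal nerve, at days 2, 7, 21 and 75, or with a facial injury of shallow skin cuts at day 2. Uninjured wildtype C57BL controls were measured on 10x and on Drop-seq. Each injury condition is 1 library of nuclei from pooled males and females, so strain, transgene and lesion cannot be told apart between libraries, while gated and 0-UMI nuclei of the scratch lesion library share all of these. Nuclei are not replicates. Within the scratch lesion library no test was therefore made, the 95% intervals cover counting error only, and a gene was counted as higher or lower when its level, in UMIs per 1000000 UMIs outside the gate genes (CPM) summed over the nuclei, differed 2-fold or more.

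Trigeminal sensory neurons send axons to the skin of the face, where they detect touch, temperature, itch and damage. When such an axon is cut, the neuron turns on transcription factors, neuropeptides and cytoskeletal genes that accompany regrowth, while ion channels and receptors of the intact neuron are often reduced. Atf3 is a stress-induced transcription factor that has long been used to mark axotomized sensory neurons, and several of the other gate genes are known to be induced with it after nerve injury.

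The scratch lesion table held 21903429 UMIs over 20371 genes, with a median of 2303 UMIs and 1403 genes per nucleus, and the medians of the other tables ran between 1747 and 4178.5 UMIs. A barcode seen in another 10x table was carried by 327 scratch lesion nuclei, among them 9 gated and 63 matched 0-UMI nuclei. Without these nuclei 3.57% of the rest passed the gate and 257 genes differed 2-fold or more, against 3.54% and 259 with them. Gated nuclei made up 26 of the 391 nuclei with the highest Scrublet doublet scores, which is 9.39% of the gated nuclei.

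The gate itself was met in many combinations. Of the gated nuclei, 72 had 2 of the 6 genes, 76 had 3, 66 had 4, 51 had 5 and 12 had all 6. Sema6a, a transmembrane semaphorin, was found in 76.9% of them, the integrin subunit Itgb6 in 76.2%, Atf3 in 60.3%, the adhesion molecule Flrt3 in 55.6%, the growth arrest gene Gadd45a in 54.2% and Sprr1a, a small proline-rich protein linked to axon outgrowth, in 24.5%. Among the remaining nuclei of the library these shares lay between 0.967% for Sprr1a and 9.48% for Sema6a. The median gate sum was 7 UMIs and the highest 46. At the edge of the rule, 60 gated nuclei had a sum of exactly 4, 35 nuclei with a sum of 4 or more were left out because only 1 gene was detected, and 91 nuclei with 2 genes or more stopped at a sum of 3. These values chose the nuclei and are given as a description.

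The same gate took 124 of 8660 nuclei after facial injury (1.43%, 1.19 to 1.70). After IOT it took 14.0% of nuclei at day 2, 7.91% at day 7, 6.18% at day 21 and 4.71% at day 75. In controls it took 15 of 4368 nuclei on 10x (0.343%), where Sprr1a was not listed, and 13 of 3178 on Drop-seq (0.409%). The scratch lesion share was therefore above that of the facial injury and of both controls and below that of every IOT library, and its counting interval overlapped that of no other library. Since deeper nuclei pass more easily, nuclei were also thinned to 1104 UMIs each. Then 86 of 7530 scratch lesion nuclei passed (1.14%, 0.915 to 1.41), against 0.436% after facial injury and 4.29%, 3.09%, 1.56% and 0.550% at IOT days 2, 7, 21 and 75. At equal depth the scratch lesion share stood above that of IOT day 75, whereas it stood below it in the counts as deposited, and its interval overlapped that of IOT day 21 (1.20 to 1.99). No thinned control nucleus on 10x passed (0 of 4368, which allows a share of up to 0.0687%), and 0.275% did on Drop-seq.

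**Figure D1:**
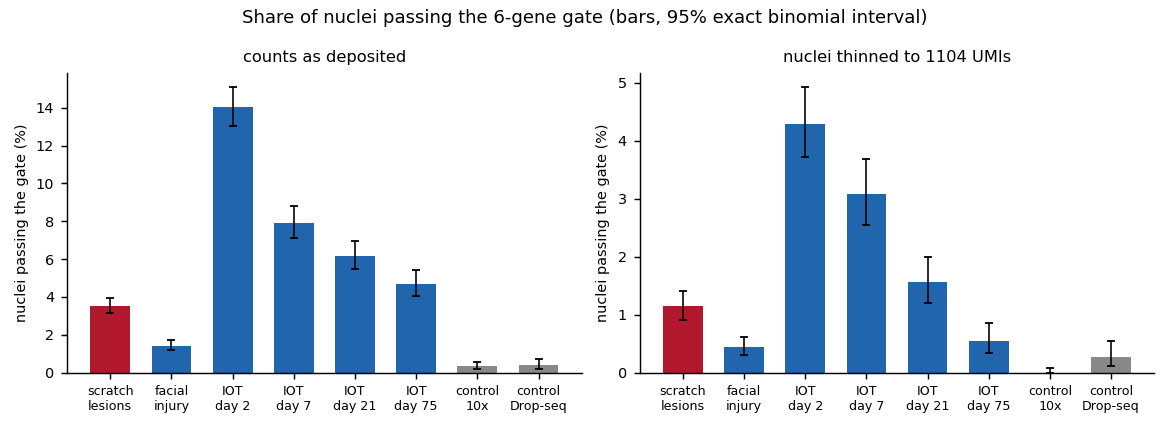
Share of nuclei (%) that passed the 6-gene gate in each library, as deposited (left) and with every nucleus thinned to 1104 UMIs (right). Bars are shares of nuclei and whiskers exact binomial 95% intervals; scratch lesions stand at 3.54% on the left and 1.14% on the right, where they pass IOT day 75 at 0.550%.

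Of 6114 genes with a mean of at least 30 CPM over both groups of nuclei, 174 were 2-fold or more higher in gated than in matched 0-UMI nuclei (2.85% of the genes) and 85 were 2-fold or more lower (1.39%). Of these, 34 genes were 4-fold or more higher and 2 were 4-fold or more lower. The median over all 6114 genes was -0.06 on the log2 scale. A floor on the mean is passed more easily by genes that are high in gated nuclei. With the floor set on the 0-UMI nuclei alone, 99 of 6126 genes were higher (1.62%) and 124 lower (2.02%), so the excess of higher genes depended on the floor.

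**Figure D2:**
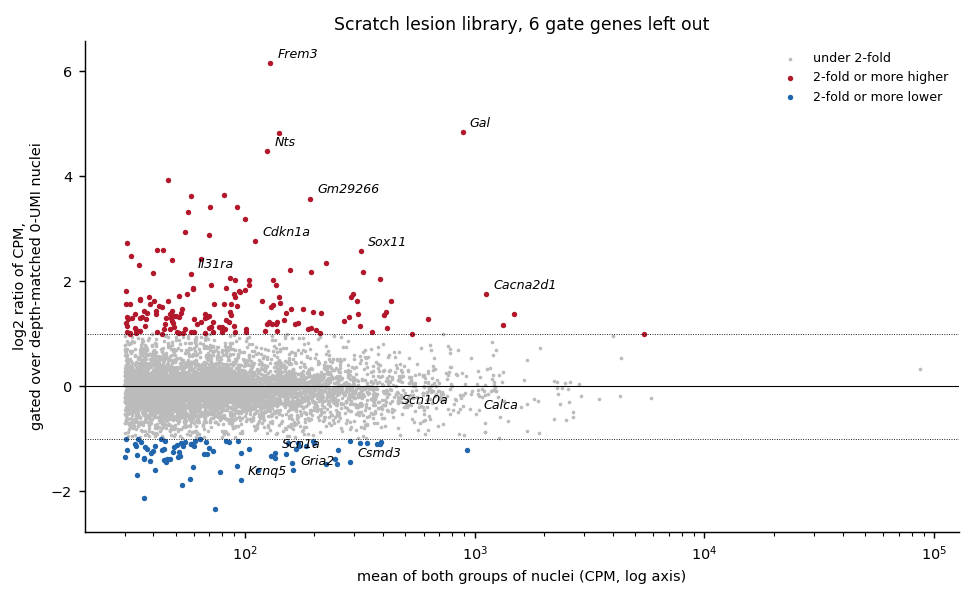
Log2 ratio of CPM, gated over depth-matched 0-UMI nuclei, against the mean CPM of both groups (log axis) for the 6114 genes at 30 CPM or more in the scratch lesion library. Red points are the 174 genes 2-fold or more higher, blue points the 85 that were 2-fold or more lower, and dotted lines mark 2-fold; Frem3 lies at 6.15, Gal at 4.83 and Nts at 4.48.

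Gated nuclei of the other 5 injury libraries offered the same measure in samples that played no part in choosing these members, although the same gate was applied there. Counts were summed over gated and over matched 0-UMI nuclei in each of 6 injury libraries and fitted together with edgeR's quasi-likelihood test, with Benjamini-Hochberg adjustment over 12860 genes and a threshold of 0.05. In the other 5 libraries 1335 genes rose (10.4%) and 1022 fell (7.95%). Of the 174 genes higher after scratch lesions 140 rose there, 4 fell and 30 did neither, a share of 80.5% that rose against 11.6% of all 6114 genes. Of the 85 lower genes 64 fell, 2 rose and 19 did neither, a share of 75.3% against 11.7%. Among 149 genes that rose 2-fold or more in the other libraries, 94 were also 2-fold or more higher after scratch lesions (63.1%, against 2.85% of all 6114 genes), with medians of 1.21 after scratch lesions and 1.42 in the other libraries. Among 102 that fell 2-fold or more there, 24 were 2-fold or more lower after scratch lesions (23.5%, against 1.39%), although 96 had the same sign, with medians of -0.71 and -1.17. These comparisons used the floor on the mean of both groups, which some higher genes passed only through gated nuclei. They were not repeated with the floor on the 0-UMI nuclei alone, where 99 genes were higher.

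Because an AP-1 subunit, Jun, was among the higher genes, the promoters of the called genes in RefSeq (GRCm38.p6), from 250 bases before to 50 after each gene's start, were searched on both strands for TGANTCA, the AP-1 site. It occurred in 10 of 127 higher genes with a window (7.87%), in 4 of 59 lower genes (6.78%), in 6.14% of the genes at the floor and in 8.97% of all genes with a window, so the share among higher genes was near the background. The pattern TGACGTCA, bound by factors of the CREB and ATF families, occurred in 3.94% of higher genes, 0% of lower genes, 4.09% of genes at the floor and 2.03% of all genes with a window. The match in Nts, a peptide gene described below, and those in the actin regulator Palld and the antioxidant gene Srxn1 are printed with the pattern in capitals. The Nts stretch is chr10:102490589-102490655 on the minus strand, that of Palld chr8:61591157-61591223 on the minus strand, and that of Srxn1, which holds the pattern at 2 places, chr2:152105392-152105515 on the plus strand.
Nts: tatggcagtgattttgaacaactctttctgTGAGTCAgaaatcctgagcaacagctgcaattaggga
Palld: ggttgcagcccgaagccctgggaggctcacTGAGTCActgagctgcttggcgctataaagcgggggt
Srxn1: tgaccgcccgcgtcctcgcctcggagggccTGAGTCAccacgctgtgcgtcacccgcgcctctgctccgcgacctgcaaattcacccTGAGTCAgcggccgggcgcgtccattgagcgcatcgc

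Of 8 neuropeptide genes known to be induced by nerve injury, 3 were at the floor, Gal, Nts and Adcyap1, and each was 2-fold or more higher (2.85% of all genes). Nts reached the floor only through gated nuclei. Gal (chr19:3409915-3414544), which encodes galanin, had 1715 CPM in gated nuclei and 60.1 CPM in matched 0-UMI nuclei, a log2 ratio of 4.83, and was detected in 55.6% against 17.6% of nuclei. Across the other libraries Gal reached 664 CPM in gated against 33.5 CPM in 0-UMI nuclei after facial injury, 266 against 26.8 at IOT day 2, 366 against 13.2 at day 7, 172 against 16.7 at day 21 and 29.4 against 6.85 at day 75. The scratch lesion library thus held the highest Gal level both in gated and in 0-UMI nuclei. The excess over the other libraries was not called (1.12, edgeR's quasi-likelihood test, adjusted p = 0.86). The galanin transcripts were unevenly shared, and the 28 gated nuclei with most Gal held 63.1% of its UMIs, with up to 120 in a nucleus.

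Nts, which encodes neurotensin (chr10:102481756-102490486), had 240 CPM in gated and 10.7 CPM in matched 0-UMI nuclei, a log2 ratio of 4.48 (4.07 to 4.91), and was found in 29.6% against 3.18% of nuclei. Its level in gated nuclei of the other libraries ran from 35.2 CPM at IOT day 2 to 441 CPM at day 21, and in the other 5 libraries together it rose by 4.86 ± 0.151 (SE). Adcyap1, the gene of the peptide PACAP, had 260 CPM in gated and 56.2 CPM in 0-UMI nuclei, a log2 ratio of 2.21 (1.98 to 2.44). For Npy, the gene of neuropeptide Y, 13 UMIs were counted in gated nuclei and 0 in matched 0-UMI nuclei. That is 11 CPM in gated nuclei after scratch lesions, whereas Npy had 231 CPM in gated nuclei at IOT day 7 and 170 CPM at day 21. Vip, the gene of vasoactive intestinal peptide, had 1 UMI in gated and 61 in 0-UMI nuclei, 0.847 against 10.9 CPM (-3.69, -9.01 to -1.16). With nuclei thinned to 1294 UMIs, Vip was found in 0.145% of matched 0-UMI and 0% of gated nuclei. Its ratio thus rests on few nuclei, which the counting interval does not cover. Gal, Nts and Adcyap1 each rose in the other 5 libraries and were higher in 5 of 5.

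Frem3 showed the widest ratio among the named genes over the floor, which it reached only through gated nuclei. This gene (chr8:80611080-80695356), a member of the Fras1-related family of extracellular matrix proteins, had 255 CPM in gated and 3.58 CPM in matched 0-UMI nuclei, a log2 ratio of 6.15 (5.50 to 6.89). It was detected in 29.96% of gated and 1.08% of 0-UMI nuclei. In gated nuclei of the other libraries Frem3 had 50.7 CPM after facial injury and 195, 129, 51.2 and 147 CPM at IOT days 2, 7, 21 and 75, all below the scratch lesion value, and in 0-UMI nuclei 0.676 to 7.0 CPM. It rose by 5.0 ± 0.163 in the other 5 libraries. Of 7 list members of integrins, proteases and matrix at the floor 3 were 2-fold or more higher, Frem3 among them, and none lower (2.85% and 1.39% of all genes). The laminin-binding integrin subunit Itga7 had 318 CPM in gated and 70.7 CPM in 0-UMI nuclei (log2 ratio 2.17, 1.96 to 2.38), and the membrane metalloproteinase Mmp16 457 and 135 CPM (1.76, 1.60 to 1.92). Below the floor other members were lower, with 11.9 CPM in gated and 29.4 CPM in 0-UMI nuclei for Fras1, a matrix protein of the same family as Frem3 (-1.31, -2.21 to -0.52), and 13.6 and 27.4 CPM for the integrin subunit Itgav (-1.01, -1.86 to -0.27).

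Of 10 transcription factors tied to axon regeneration at the floor, 4 were 2-fold or more higher and none lower (2.85% and 1.39% of all genes), and all 10 had a ratio above 0. Their median was 0.81, against -0.06 over all genes. Fosl2, an AP-1 family gene, reached the floor only through gated nuclei, and with the floor on the 0-UMI nuclei alone 3 of 9 were higher, with a median of 0.66. Sox11 (chr12:27334264-27342574), a developmental factor re-expressed after axotomy, had 550 CPM in gated and 92.4 CPM in matched 0-UMI nuclei, a log2 ratio of 2.57 (2.40 to 2.74), and was detected in 76.5% against 27.8% of nuclei. Its UMIs were spread more evenly than those of Gal, with 30.7% of them in the top 28 nuclei. In gated nuclei Sox11 had 467 CPM after facial injury and 539, 583, 707 and 268 CPM at IOT days 2, 7, 21 and 75, so that the scratch lesion level lay inside the range of the others. Klf6, a zinc finger factor, had 138 and 42.6 CPM (1.70, 1.40 to 1.99), and Jun, an AP-1 subunit, 277 and 132 CPM (1.07, 0.87 to 1.26). Smad1 was at 198 and 102 CPM and Klf7 at 950 and 612 CPM, both short of 2-fold. Stat3, which carries cytokine signals to the nucleus, stood at 429 CPM in gated and 313 CPM in 0-UMI nuclei (0.45) and did not pass in the other libraries (0.05 ± 0.0927, edgeR adjusted p = 0.77).

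Of 18 growth cone and cytoskeleton genes at the floor 8 were 2-fold or more higher (2.85% of all genes) and none lower, with a median of 0.64. Lmo7, Kif22 and Stmn4, at 12.2, 15.7 and 25.8 CPM in 0-UMI nuclei, reached the floor only through gated nuclei, and with the floor on the 0-UMI nuclei alone 5 of 15 were higher. In the other 5 libraries 14 of 20 tested rose (10.4% of all genes) and none fell. Myo10, the filopodial myosin, had 168 CPM in gated and 41.2 CPM in matched 0-UMI nuclei (2.03, 1.75 to 2.31), and the tubulin Tubb2b 581 and 228 CPM. Stmn2, a microtubule regulator of growth cones, was at 1528 and 952 CPM (0.68) and the tubulin Tuba1a at 1440 and 956 CPM (0.59). Map2, a dendritic microtubule protein, went the other way after scratch lesions, with 445 CPM in gated and 566 CPM in 0-UMI nuclei (-0.35, -0.48 to -0.21), while it rose in the other 5 libraries (0.56 ± 0.103, edgeR adjusted p = 0.0016). That difference between libraries did not pass the test (-0.87, adjusted p = 0.49).

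Among damage and stress genes, Cdkn1a (chr17:29090976-29100727), the cell cycle inhibitor p21, had 193 CPM in gated and 28.5 CPM in matched 0-UMI nuclei, a log2 ratio of 2.76 (2.46 to 3.06). Cdkn1a reached the floor of 30 CPM only through gated nuclei. The levels of Cdkn1a in gated nuclei were 97.4 CPM after facial injury and 57.4, 166, 41.5 and 22.2 CPM at IOT days 2, 7, 21 and 75. The heat shock protein gene Hspb1 had 710 and 355 CPM, a log2 ratio of 1.0. Ddit3, Mdm2, Ccng1 and Ddit4, which respond to stress or to p53, lay between -0.21 and 0.28 with intervals that held 0. Csf1, the cytokine that injured sensory neurons release toward microglia, was below the floor but had 43 UMIs in gated and 23 in matched 0-UMI nuclei, which is 36.4 against 4.12 CPM (3.15, 2.38 to 3.94). It rose by 3.21 ± 0.206 in the other 5 libraries, and its difference after scratch lesions was -0.04. The cytokine receptors Lifr and Il6st were near 0 in the scratch lesion library, at 0.01 and -0.09.

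Several genes outside the lists were among the 15 widest upward ratios. Btk, a tyrosine kinase known from B cells, had 180 CPM in gated and 19.9 CPM in matched 0-UMI nuclei (3.18, 2.85 to 3.53). The small GTPase gene Rhoq had 533 and 118 CPM (2.18). Rhoq overlaps AC154492.2 on the same strand and Pigf on the other, so reads of these genes may not be separable. Pkib, an inhibitor of protein kinase A, had 213 and 52.4 CPM (2.03). Each of these rose in the other 5 libraries. Among noncoding transcripts Gm29266 had 355 and 29.9 CPM (3.57) and 2310039L15Rik 272 and 9.66 CPM (4.81, 4.39 to 5.26). Btk, Gm29266 and 2310039L15Rik reached the floor of 30 CPM only through gated nuclei. The ratio of 2310039L15Rik was 4.26 after facial injury and 1.04 to 1.93 in the 4 IOT libraries. For 2310039L15Rik the scratch lesion ratio was 3.09 ± 0.581 above the estimate of 1.75 in the other libraries, which did not pass the adjusted threshold (edgeR, adjusted p = 0.14) but did in 4 of 11 settings.

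Cacna2d1 (chr5:15934691-16374511), the calcium channel subunit that binds gabapentinoids, was higher in gated nuclei of all 6 injury libraries. It had 1737 CPM in gated and 515 CPM in matched 0-UMI nuclei, a log2 ratio of 1.75 (1.67 to 1.84), and was found in 94.6% against 71.6% of nuclei. In gated nuclei elsewhere it had 1912 CPM after facial injury, 4494, 3270 and 4082 CPM at IOT days 2, 7 and 21, and 1362 CPM at day 75. Scratch lesions and facial injury thus sat between day 75 and the earlier IOT times. It was the 1 calcium channel gene of 11 at the floor that was 2-fold or more higher (2.85% of all genes), and 1 was lower (1.39%).

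The 85 lower genes included receptors, guidance molecules and channels of the intact neuron. Gria2 (chr3:80681450-80802835), an AMPA receptor subunit, had 80.5 CPM in gated and 244 CPM in matched 0-UMI nuclei, a log2 ratio of -1.60 (-1.91 to -1.30), and was found in 24.9% against 50.3% of nuclei. Grm8, a metabotropic glutamate receptor that dampens release, had 119 and 333 CPM (-1.49, -1.75 to -1.24). Sema5a, a guidance molecule, had 56.8 and 171 CPM (-1.59). Scn1a (chr2:66270778-66440840), the sodium channel Nav1.1 of large and some small sensory neurons, had 78.8 and 191 CPM (-1.28, -1.60 to -0.97). All 4 fell in the other 5 libraries and were lower in 5 of 5. Of the 15 lowest ratios 13 fell there (7.95% of all genes), and Ndst4 and Esrrg did not pass (-0.30, edgeR adjusted p = 0.23, and -0.36, adjusted p = 0.12).

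Of 32 potassium channel genes at the floor 7 were 2-fold or more lower (1.39% of all genes) and 1 higher (2.85%), with a median of -0.60, and in the other 5 libraries 23 of 36 fell (7.95% of all genes) and 2 rose (10.4%). Kcna2, a low-threshold axonal channel, had 188 CPM in gated and 386 CPM in matched 0-UMI nuclei (-1.04, -1.24 to -0.84), and the channel partner Kcnip1 73.7 and 185 CPM (-1.33). Kcnb2, a delayed rectifier, had 1033 and 1539 CPM (-0.58), less than its fall of 1.21 ± 0.119 in the other libraries, and the difference of 0.67 was not called (edgeR, adjusted p = 0.80). Kcnq3, a subunit of the M current, was level at 289 CPM in both groups after scratch lesions and rose elsewhere (0.92 ± 0.109, edgeR adjusted p = 5.3e-05). The difference of -0.88 ± 0.266 between them was not called. Of 11 sodium channel genes only Scn1a was past 2-fold, on the lower side (1.39% of all genes), and 10 of 11 had ratios below 0. Adra2c, an inhibitory adrenergic receptor, was under the floor with 9 UMIs in gated and 258 in 0-UMI nuclei, 7.62 against 46.2 CPM (-2.60, -3.74 to -1.65).

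Several genes of nociceptors had ratios nearer 0 after scratch lesions than in the other injuries, but the difference passed the test for none of those named here, and Tac1 and Trpm8 had like ratios in both. Scn10a (chr9:119608456-119719322), the sodium channel Nav1.8 of nociceptors, had 379 CPM in gated and 517 CPM in matched 0-UMI nuclei, a log2 ratio of -0.45 (-0.60 to -0.31). It was still found in 51.6% of gated nuclei, against 55.7% of 0-UMI nuclei. In the other libraries Scn10a had 205 CPM in gated against 567 CPM in 0-UMI nuclei after facial injury, 156 against 445 at IOT day 2, 76.4 against 605 at day 7, 102 against 362 at day 21 and 258 against 529 at day 75. The ratio after scratch lesions was the nearest to 0 of the 6. The tested difference, 1.25 ± 0.415, did not pass after adjustment (edgeR, adjusted p = 0.62). Trpm3, a heat-sensing channel, showed -0.44 after scratch lesions beside a fall of 1.08 ± 0.125 in the other libraries, and Oprm1, the mu opioid receptor, -0.61 beside a fall of 1.43 ± 0.146.

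The kainate receptor gene Grik1 (chr16:87895900-88290265), abundant in nonpeptidergic nociceptors, differed little between the groups of scratch lesion nuclei. It had 1203 CPM in gated and 1278 CPM in matched 0-UMI nuclei after scratch lesions, a log2 ratio of -0.09 (-0.17 to -0.01). In every other injury library gated nuclei lay more than 2-fold below 0-UMI nuclei, with 310 against 656 CPM after facial injury, 312 against 894 at IOT day 2, 307 against 829 at day 7, 339 against 875 at day 21 and 616 against 1513 at day 75. Grik1 fell by 1.30 ± 0.0897 in those 5 libraries, and the scratch lesion difference of 1.25 ± 0.212 had an adjusted p of 0.085 with edgeR's quasi-likelihood test. Over 11 settings this adjusted p ran between 0.016 and 0.32, under the threshold with DESeq2, without the low count filter and without the IOT day 75 library. Tshz2 and Ldb2, regulators found in small neurons, stood alike, with -0.17 and -0.09 after scratch lesions beside falls of 1.0 and 1.12 in the other libraries. Their differences of 0.87 ± 0.247 and 1.06 ± 0.234 were not called.

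Among constitutive peptide genes Calca, the gene of CGRP, had 834 CPM in gated and 1204 CPM in matched 0-UMI nuclei (-0.53, -0.63 to -0.43). It fell by 1.17 ± 0.202 in the other libraries together, which ran from -0.53 at IOT day 2 to -2.70 at day 7. Its ratio after scratch lesions was thus like that at IOT day 2. Calcb and Cartpt were at 0.10 and 0.25 after scratch lesions, with intervals that held 0. Both fell in the other libraries together, although Cartpt stood at 0.14 at IOT day 75. Their differences from the other libraries, 1.12 ± 0.483 and 1.10 ± 0.375, were not called. Tac1, the gene of substance P, had 130 and 246 CPM (-0.92), close to its fall of 1.0 in the other libraries. The median over these 4 genes was -0.21 after scratch lesions and -0.99 in the other libraries. Piezo2, the touch channel, stood at -0.07 and the pan-sensory factor Isl1 at -0.59. Trpm8, the cold and menthol receptor, had 17 UMIs in gated nuclei, 14.4 against 45.1 CPM (-1.65, -2.45 to -0.94), near its fall of 1.58 in the other libraries.

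**Figure D3:**
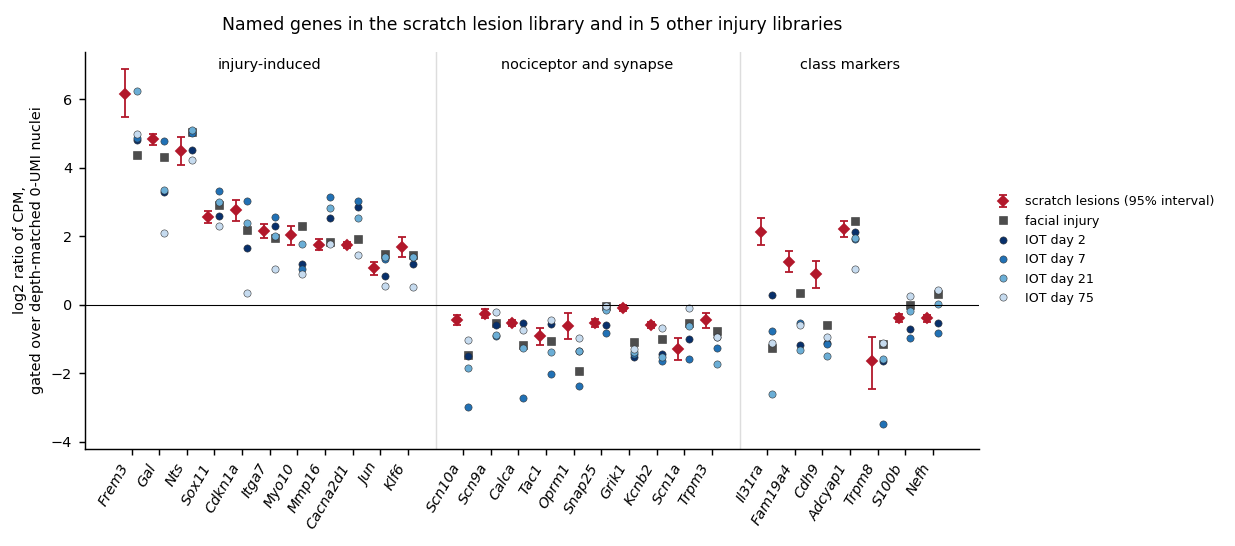
Log2 ratio of CPM, gated over depth-matched 0-UMI nuclei, for named genes in the scratch lesion library (red diamonds, counting intervals) and in the 5 other injury libraries (squares and circles, 1 point each). Frem3, Gal and Sox11 lie above 0 in all 6 libraries; Grik1 lies at -0.09 after scratch lesions and below -1 in the others, and Il31ra at 2.14 after scratch lesions.

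Single markers of 2 small-fiber classes, Il31ra and Fam19a4, were 2-fold or more higher in gated nuclei after scratch lesions, while their estimates in the other 5 libraries were below 0. Il31ra (chr13:112519898-112594360), the receptor of the itch cytokine interleukin-31, had 94.9 CPM in gated and 21.5 CPM in matched 0-UMI nuclei, a log2 ratio of 2.14 (1.76 to 2.53). It was found in 11.9% against 2.17% of nuclei and reached the floor of 30 CPM only through gated nuclei. In the other libraries Il31ra had between 1 and 29 UMIs in gated nuclei, or 1.77 to 8.58 CPM, and 4.91 to 10.9 CPM in 0-UMI nuclei, and it did not pass there (-0.65 ± 0.331, edgeR adjusted p = 0.20). The other markers of the same itch class, Nppb and Sst, had 0 UMIs in the gated nuclei, as had Mrgpra3 of another itch class. Fam19a4 and Cdh9 mark C-fiber low-threshold mechanoreceptors. Fam19a4 had 117 and 48.7 CPM (1.26, 0.96 to 1.56) and fell in the other libraries (-0.66 ± 0.184), where its ratio was below 0 in the 4 IOT libraries and 0.35 after facial injury. Cdh9 had 65.2 and 35.3 CPM (0.89, 0.49 to 1.27) short of 2-fold, and likewise fell there (-1.02 ± 0.163). Of the other markers of this class, Cd34 had 8.47 and 13.6 CPM (-0.68, -1.80 to 0.27), and Th 3 UMIs in gated and 15 in 0-UMI nuclei. By edgeR's quasi-likelihood test none of these differences passed after adjustment, with 2.83 ± 0.521 for Il31ra (adjusted p = 0.14), 1.96 ± 0.378 for Fam19a4 (adjusted p = 0.15) and 1.94 ± 0.318 for Cdh9 (adjusted p = 0.07).

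Over all 12860 genes the scratch lesion ratio differed from that of the other 5 libraries for 2 genes, both above (0.0156%), and for none below (0.0%), by edgeR's quasi-likelihood test with 4 residual degrees of freedom. At an unadjusted p under 0.05 there were 749 genes, and DESeq2 called 6. The test sets 1 library against 5 and assumes that the scratch lesion library varies as they do. Unc13c (chr9:73479422-73968966), a presynaptic priming factor, had 335 CPM in gated and 200 CPM in matched 0-UMI nuclei after scratch lesions. Everywhere else it was lower in gated nuclei, with 136 against 192 CPM after facial injury, 125 against 267 at IOT day 2, 70.1 against 162 at day 7, 89.2 against 219 at day 21 and 126 against 256 at day 75. Its difference was 1.78 ± 0.249 (adjusted p = 0.044).

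Tmem45b (chr9:31426196-31464462), a transmembrane protein gene, had 109 CPM in gated and 49.8 CPM in matched 0-UMI nuclei after scratch lesions. It had 24.4 against 35.2 CPM after facial injury and 14.8 against 22.5, 17.0 against 39.3, 10.6 against 26.6 and 27.3 against 56.1 CPM at IOT days 2, 7, 21 and 75, and so was lower in gated nuclei of 5 of 5 other libraries. Its difference was 2.06 ± 0.296 (edgeR, adjusted p = 0.044). Both calls were near the threshold, and each was kept in 7 of 11 settings. Both were lost without TMM scaling and without the IOT day 7 library (adjusted p = 0.052 in each for both genes) and without the IOT day 21 library (adjusted p = 0.087). Unc13c was also lost without IOT day 2 (adjusted p = 0.060) and Tmem45b without facial injury (adjusted p = 0.067).

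Within the scratch lesion library the level of several genes followed the gate sum of the nuclei. The gate sum also chose the nuclei, so the steps below are a description only. Gal had 60.1 CPM in matched 0-UMI nuclei, 108 CPM at a sum of 1, 167 at 2 to 3, 536 at 4 to 5, 1579 at 6 to 9 and 3087 at 10 or more. Sox11 ran through 92.4, 104, 161, 385, 501 and 767 CPM over the same steps, and Frem3 through 3.58, 18.2, 53.4, 219, 292 and 261 CPM. The genes thus differed in shape, Gal being far higher in the top step and Frem3 staying at 219 to 292 CPM from a sum of 4. Scn1a had 191, 173, 121, 121, 80.2 and 32.3 CPM over the same steps, lowest in the nuclei with most gate UMIs. Scn10a stayed between 501 and 600 CPM up to a sum of 5 and had 347 and 276 CPM beyond. Grik1 had 1278, 1467, 1517, 1628, 1135 and 810 CPM, so that its level was below that of the 0-UMI nuclei only from a sum of 6. Il31ra was highest, at 152 CPM, in the 90 nuclei with a sum of 6 to 9. Other genes did not follow the sum. Piezo2 stayed between 1113 and 1275 CPM over all steps. Calca had 1204 CPM in matched 0-UMI nuclei and 790, 679 and 1013 CPM at 4 to 5, 6 to 9 and 10 or more. The steps held 1385, 1454, 536, 102, 90 and 85 nuclei, and only the first was matched on depth, the medians of the others running from 2569.5 to 4160 UMIs.

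**Figure D4:**
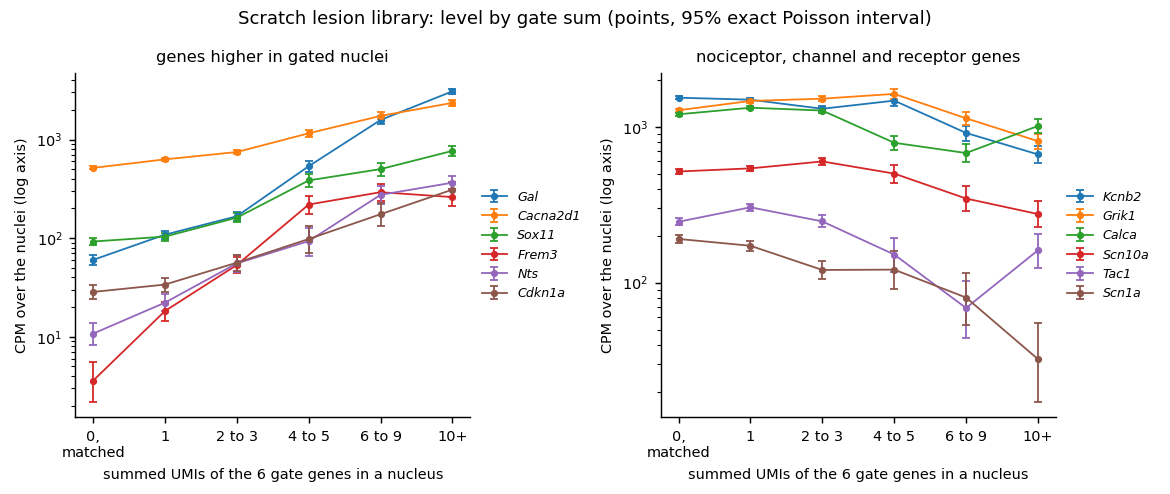
CPM (log axes) of 6 genes that were higher in gated nuclei (left) and of 6 nociceptor, channel and receptor genes (right) by the summed gate UMIs of the scratch lesion nuclei; points are sums over the nuclei of a step and whiskers exact Poisson 95% intervals. Gal climbs to 3087 CPM at a sum of 10 or more, while Grik1 is below its level in 0-UMI nuclei only from a sum of 6.

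Gated nuclei differed among themselves. S100b, a marker of large neurons, was found in 160 of them and absent from 117. In nuclei with S100b, Gfra1, the receptor of GDNF, had 438 CPM against 136 CPM in nuclei without it, Pcdh7, a protocadherin, 629 against 125, and Adcyap1 333 against 94.4. The reverse held for Nts (158 in nuclei with S100b, 425 without), Frem3 (179 and 428), Sox11 (423 and 839), Il31ra (56.1 and 183) and Fam19a4 (58.5 and 250). Nuclei with S100b were deeper, with a median of 4746.5 UMIs against 2675, so the split depends on depth as well. Gal was closer, with 1480 CPM in nuclei with and 2249 CPM in nuclei without S100b.

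Splitting on Gal itself gave 154 nuclei with and 123 without a Gal UMI, with medians of 3329 and 4193 UMIs. Sox11 had 791 CPM in nuclei with Gal and 290 CPM without, Cdkn1a 281 and 98.5 CPM, and Fam19a4 168 and 61.5 CPM. Il31ra ran the other way, with 49.0 CPM in nuclei with Gal and 144 CPM without, and so did Pcdh7 (260 and 707 CPM) and Nefh, the heavy neurofilament (559 and 1009 CPM). Il31ra and Fam19a4 thus lay on opposite sides of this split, although both were higher in nuclei without S100b.

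At a fixed depth of 1294 UMIs, which 275 gated and 1375 matched nuclei reached, the shares of nuclei with a UMI kept the same order. They were 46.5% in gated against 7.64% in 0-UMI nuclei for Gal, 50.5% against 12.1% for Sox11, 21.5% against 0.436% for Frem3 and 80.4% against 44.3% for Cacna2d1. On the side of the lower genes they were 9.45% against 25.9% for Gria2, and for Scn10a 27.6% against 38.3%.

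The lists side by side show where scratch lesions and the other injuries lay apart. The medians of injury transcription factors (0.81 after scratch lesions, 0.91 in the other libraries), growth cone genes (0.64 and 0.71) and potassium channels (-0.60 and -0.70) lay within 0.1 of each other. Those of sensory transduction genes (-0.28 and -0.65), identity transcription factors (-0.20 and -0.50) and inhibitory receptors (-0.33 and -0.66) were nearer 0 after scratch lesions. With the floor on the 0-UMI nuclei alone, the scratch lesion medians of these lists were -0.39, -0.48 and -0.47, and so depended on the floor. The medians of the other libraries were not recomputed at that floor. Large neuron genes had a median of -0.39 after scratch lesions, with all 8 below 0, and of -0.03 in the other libraries together. Single libraries there differed in sign. Nefh ran from -0.81 at IOT day 7 to 0.45 at IOT day 75, beside -0.38 after scratch lesions. S100b ran from -0.98 to 0.26 at the same times, beside -0.39 after scratch lesions. Axon guidance genes stood at -0.41 and -0.10. Of 14 at the floor Plxna4, a plexin, was 2-fold or more higher (884 and 365 CPM, 1.27) and 3 genes were lower, against 2.85% and 1.39% of all genes. Synaptic release genes were at -0.16 and -0.12, and none of 19 was past 2-fold, against 2.85% of all genes higher and 1.39% lower. The study names genes of its injured neuron classes I1 and I2. The I1 genes had medians of -0.34 after scratch lesions and 0.30 in the other libraries, and the I2 genes 0.19 and -0.67. No set test was made, and the difference between these medians was not tested.

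**Figure D5:**
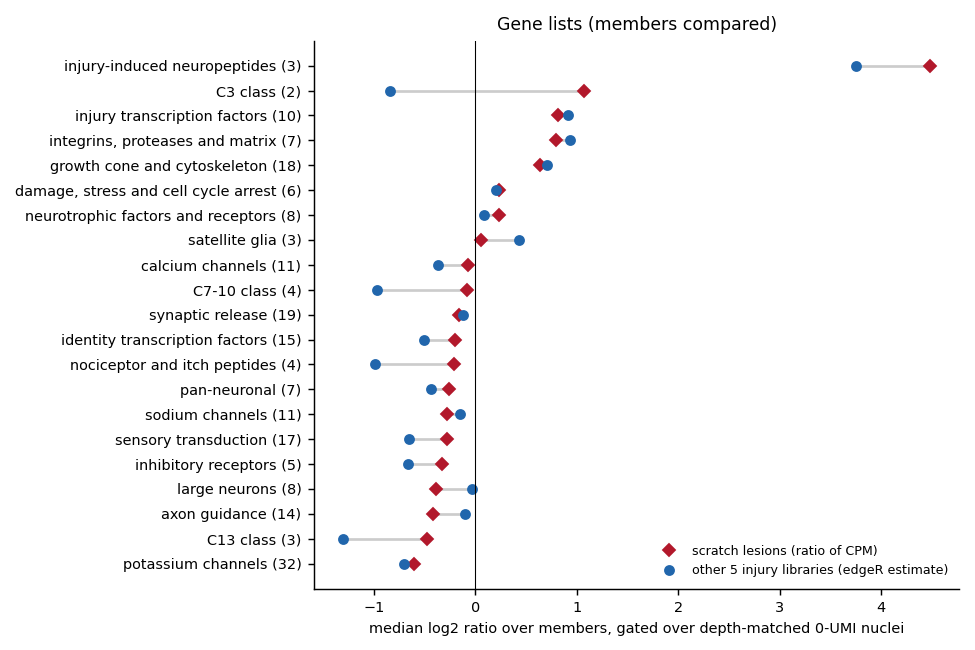
Median log2 ratio over the members of selected gene lists, gated over depth-matched 0-UMI nuclei, in the scratch lesion library (red diamonds, ratio of CPM) and in the other 5 injury libraries (blue circles, edgeR estimate), with the number of members compared in parentheses. Not every list is drawn. The lists of injury transcription factors and growth cone genes have like medians in both, while the nociceptor peptides lie at -0.21 after scratch lesions and -0.99 in the other libraries; C3, C7-10 and C13 are the study's names for classes of small neurons.

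Transcripts of other cell types were counted in both groups, and their part in the results was not tested. Satellite glia markers summed to 681 CPM in gated and 624 CPM in matched 0-UMI nuclei, Schwann cell markers to 555 and 497 CPM, fibroblast markers to 77.9 and 81.8 CPM, vascular markers to 150 and 113 CPM, leukocyte markers to 78.8 and 53.2 CPM and red cell markers to 127 and 143 CPM. Of the 12 markers at the floor over these lists none was past 2-fold, against 2.85% of all genes higher and 1.39% lower. The largest ratio among them was 0.74 for Glul, glutamine synthetase of satellite glia (183 and 110 CPM). Most of the leukocyte sums came from Cx3cr1, at 71.2 and 43.1 CPM. Cx3cr1 overlaps Gorasp1, Csrnp1 and Xirp1 on the same strand, so reads of these genes may not be separable. Ptprc, the common leukocyte antigen CD45, had 0 UMIs in gated nuclei. Immediate early genes summed to 71.2 and 44.7 CPM, of which Dusp1, a phosphatase, had 45.7 and 21.7 CPM (1.08, 0.59 to 1.55). Dusp1 reached the floor of 30 CPM only through gated nuclei. Fos, whose promoter drives the tTA of these mice, had 4 UMIs in gated nuclei, 3.39 against 5.91 CPM. Gnaq, which the transgene carries in an active form, had 624 CPM in gated and 672 CPM in 0-UMI nuclei (-0.11). Neuronal markers were detected in both groups, with Snap25 in 79.4% of gated and 88.5% of 0-UMI nuclei, Uchl1 in 93.1% and 91.3% and Rbfox3 in 45.1% and 56.3%. Rbfox3 was lower in gated nuclei, at 177 and 288 CPM (-0.70, -0.92 to -0.49). Of 7 pan-neuronal genes at the floor 5 had ratios below 0 and 2 above, with a median of -0.26 against -0.06 over all genes.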

How the data were processed

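The authors enriched neuronal nuclei of the trigeminal ganglion through a NeuN antibody and magnetic beads and made 10x version 2 libraries. Tools listed in the submitters' processing notes are STAR 2.5.3a and Seurat 2, besides Cell Ranger 2.1.0 and bcl2fastq 2.17, with mm10 as the build. The authors counted intronic reads and took out clusters of non-neuronal cells before they deposited the UMI counts of each gene in each nucleus. Strand use in counting was not given in the sources used here, so overlapping genes may share reads. Counts were summed over gated and over depth-matched 0-UMI nuclei. Ratios have exact count-ratio intervals, shares Clopper-Pearson intervals and CPM exact Poisson intervals, at 95%. The fit used edgeR 4.0.16 (R 4.3.3) with library as a block, TMM scaling and filterByExpr. It was tested on simulated data. Matching on depth took up to 5 nuclei per gated nucleus, fewer in some IOT libraries. At IOT day 75 the depths stayed apart, with medians of 6229 UMIs in gated and 5716 in matched nuclei. Scrublet was run through scanpy 1.11.5. Coordinates are from GENCODE vM21, in which 19595 of 20371 symbols were found (96.2%).

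The members, gene lists and tests were chosen with earlier results of these data known. Named genes are the 15 highest and 15 lowest ratios at 100 CPM or more, up to 6 members of each list with the highest levels, fixed names, and the genes called for the scratch lesion difference. Srxn1, Palld, Tubb2b, Vip, Fras1, Itgav, Fosl2, Lmo7, Kif22, Stmn4, Th and the splits of gated nuclei by Gal or S100b were added after values were seen, as were the floor on 0-UMI nuclei alone and the removal of shared barcodes. Alternatives were other floors, gates, thinning, TMM, DESeq2 1.42.0, all 0-UMI nuclei, and each library left out.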

Additional observations from a re-analysis of the deposited data

Results flagged for a closer look

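The effect of the gate on Tmem45b after scratch lesions differed from its effect in the other 5 injury libraries by 2.06 on the log2 scale in edgeR's quasi-likelihood test (adjusted p = 0.044), with higher values in gated nuclei after scratch lesions and lower ones in 5 of 5 other libraries. Over 11 settings this difference ran between 2.03 and 2.58. The effect of the gate on Unc13c differed in the same way by 1.78 (adjusted p = 0.044), and between 1.76 and 2.20 over the settings.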

How the results depend on the processing

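Of the fixed names and the 15 highest and 15 lowest ratios, 53 genes were at the floor and 35 past 2-fold. Under each of 8 alternatives 33 to 35 of these 35 stayed past 2-fold and all kept their direction. The highest and lowest were picked for their ratios, which largely fixed this outcome. Over the 53 genes, 300 ratios stayed inside the counting interval of the reported ratio and 124 moved outside it, 44 of them with the stricter gate. Other named genes past 2-fold, such as Il31ra, were not counted here. The share of gated nuclei (3.54%) was 1.99% with at least 6 UMIs over 3 genes, 4.70% with at least 3 UMIs and 1.14% after thinning. The 259 genes past 2-fold were 88 at a floor of 100 CPM, 637 at 10 CPM, 503 after thinning and 566 with the stricter gate, where fewer UMIs were summed. The 14 of 33 gene lists with a median above 0 were 10 to 15 under the alternatives. In the other 5 libraries 2357 calls became 1438 without IOT day 2 and up to 2906 without IOT day 75 among the fits that left out a library, and DESeq2 made 1572. The 2 calls of the scratch lesion difference became 6 with DESeq2, 0 without TMM scaling, 13 without the low count filter, 6 with all 0-UMI nuclei and 9 with the stricter gate. They ran between 0 (without IOT day 7 or day 21) and 31 (without IOT day 75) when a library was left out. The cause of these shifts was not tested. Adjusted p for the difference ran between 0.015 and 0.62 for Cdh9, 0.0030 and 0.22 for Il31ra, and 0.022 and 0.36 for Fam19a4. No paired analysis was possible because the labels give the conditions no shared replicate numbers. Gated and 0-UMI sums of a library were already paired in the fit. Depth limits genes under 30 CPM.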
